A study of Arabidopsis thaliana with 9 samples.

Results

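The 10 nuclear genes of Arabidopsis thaliana described here encode the enzymes that turn sulphate into sulphide, and the kinases that divert the activated sulphate to other uses. They are APS1, APS2, APS3 and APS4 (ATP sulphurylase), APR1, APR2 and APR3 (APS reductase), SIR (sulphite reductase), and APK1 and APK2 (APS kinase). They were found by their locus numbers among 28775 loci listed in each of 9 count files, and all 10 were present in every file and passed the filter on low counts that left 19496 loci for testing. The members were chosen by locus, which uses no measured value, but the family was proposed with results of these libraries already known and so counts as selected on the fold changes of both lines against Col-0. Their differences from wild type are therefore a description of these libraries, and the adjusted p-values beside them are no independent support.

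The libraries were made from mRNA of roots of 2-week-old plants kept at 24 °C with 16 h of light and 8 h of dark. The 3 groups of 3 libraries each were Col-0, the wild-type accession, 35S:miR858, which overexpresses the microRNA miR858, and 35S:rMYB83, which overexpresses a form of the secondary wall transcription factor MYB83 that miR858 cannot target. Both transgenes carry the name of the 35S promoter of cauliflower mosaic virus, which is active in most plant cells, so overexpression was not limited to a root cell type. No label names a nematode infection, the sulphate supply, the hour of harvest, or whether libraries of a group came from separate plants or transgenic lines. The p-values therefore measure only the spread between these libraries.

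Plants take up sulphate through the root and first join it to ATP, a reaction of ATP sulphurylase that yields adenylyl sulphate (APS, a metabolite with the same short name as the ATP sulphurylase genes). APS reductase reduces it to sulphite and is regarded as the main control point of the pathway, sulphite reductase reduces sulphite to sulphide, and sulphide enters cysteine and from there methionine and glutathione. APS kinase instead phosphorylates the same metabolite to PAPS, the donor from which sulphotransferases make glucosinolates and other sulphated compounds. In Arabidopsis the transcripts of APS reductase are known to rise when sulphate is short and to fall when reduced sulphur is plentiful, and to follow the daily light cycle.

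ATP sulphurylase mRNAs are also known targets of miR395, a microRNA family induced by sulphate shortage, and their sites are shown because they divide the 4 isoforms. The mature sequences below were read from the reference genome (TAIR10.1), 5′ to 3′, with the seed, bases 2 to 8, in capitals. The 6 precursor genes give 2 mature forms that share this seed and differ at 1 base outside it.
miR395a, miR395d and miR395e: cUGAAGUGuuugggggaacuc
miR395b, miR395c and miR395f: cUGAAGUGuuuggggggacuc

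The best ungapped match to miR395a in each spliced mRNA was then read from the same genome. Capitals mark bases that form Watson-Crick pairs with miR395a, and lower case marks mismatches and G:U pairs. Each site is given 5′ to 3′ on the mRNA, and the first 4 lie in the coding part of exon 1.
APS1, chr3:8113164-8113184, plus strand: GAGTTCCtCCAAACtCTTCAt
APS3, chr4:8414958-8414978, minus strand: GAGTTCCtCCAAACtCTTCAt
APS4, chr5:17591121-17591141, minus strand: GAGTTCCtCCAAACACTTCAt
SULTR2;1, chr5:3193268-3193288, plus strand: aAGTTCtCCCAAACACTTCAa
APS2, best window, chr1:6915836-6915856, minus strand: GctcTCtCCtAAACAgcTtAG

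APS1 and APS3 carry the same letters, with 2 mismatches and 1 G:U pair. APS4 has 1 mismatch and 1 G:U pair, and the site of SULTR2;1, a low-affinity transporter that loads sulphate into the root xylem, has 2 mismatches and 1 G:U pair. The best window of APS2 leaves 5 mismatches and 3 G:U pairs. Counting 1 for a mismatch and 0.5 for a G:U pair, the penalty was 1.5 to 2.5 at the known sites and 6.5 in APS2. For miR858a and miR858b no window of the 10 enzyme mRNAs scored below 6.0. A score describes letters only and says nothing about cleavage.

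MYB83 stood at 1.28 ± 0.780 CPM (counts relative to library size, with sizes scaled by TMM; SD, n = 3) in Col-0, at 1.53 ± 0.0271 in 35S:miR858 and at 112 ± 19.9 in 35S:rMYB83. The MIR858a locus had 120, 200 and 227 counts in the 35S:miR858 libraries and 0 in the other 6 libraries, so both transgenes show in the libraries that bear their names. Gene counts per library ran from 5313656 to 10648857. Green shoot tissue was followed with 20 marker genes, which held 0.479% of gene counts in Col-0 replicate 1 and 0.828% in 35S:rMYB83 replicate 1, against 0.078% to 0.218% in the other 7 libraries. Enzyme results that move with these 2 libraries are given with and without them, which was not done for the genes of other lists. The 8 root markers were detected, though ESB1 stayed near 0. Their summed level was 4486 to 6484 CPM in Col-0, 7113 to 8072 in 35S:miR858 and 7666 to 9794 in 35S:rMYB83. PYK10 made up most of each sum, with 4216 to 6252 CPM in Col-0, 6777 to 7801 in 35S:miR858 and 7396.5 to 9512 in 35S:rMYB83. CASP1, WER, COBL9 and EXPA7 overlapped between Col-0 and both lines. SCR lay above Col-0 in 35S:miR858 only, and SHR lay above it in both lines. In whole roots, fewer cells of a type and less RNA per cell cannot be told apart.

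APS1 and all 3 APS reductase genes passed as lower in both overexpression lines, and APR1 fell most. In 35S:miR858 6 of the 10 passed as lower (APS1, APR1, APR2, APR3, APK1 and APK2), where 13.5% of all tested loci passed as lower. SIR passed as higher, where 11.6% of all loci did, and APS2, APS3 and APS4 did not pass. In 35S:rMYB83 5 of the 10 passed as lower (APS1, APS3, APR1, APR2 and APR3), against 9.73% of all loci, and none passed as higher, against 6.7%. SIR alone had an unadjusted p under 0.05 in that direction, and DESeq2, a second count model, called it as higher. The threshold was an adjusted p of 0.05 (edgeR's quasi-likelihood test, Benjamini-Hochberg over all 19496 loci). The median log2 fold change of the 10 genes was -0.67 in 35S:miR858 and -0.73 in 35S:rMYB83, where the medians of all loci were -0.02 and 0.01. Both comparisons use the same Col-0 libraries, so their likeness is not a result of its own.

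**Figure D1:**
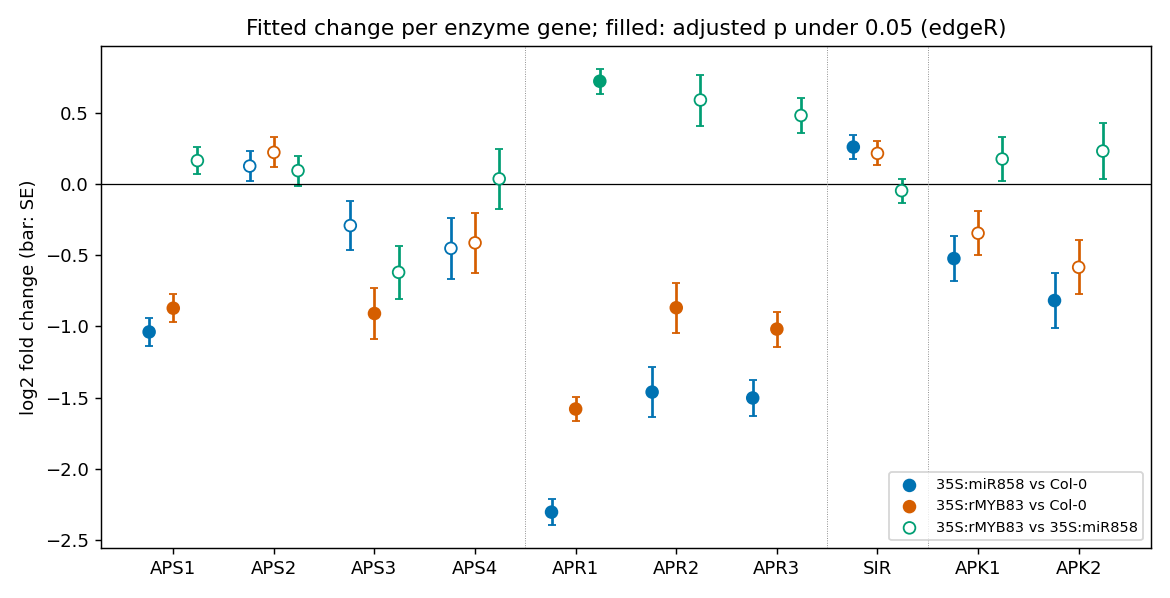
Log2 fold change (y axis, bar: SE) of each of the 10 enzyme genes in 35S:miR858 against Col-0 (blue), 35S:rMYB83 against Col-0 (orange) and 35S:rMYB83 against 35S:miR858 (green), with filled symbols at an adjusted p under 0.05 and dotted lines between enzyme steps. APR1 lies lowest, at -2.31 and -1.58 against Col-0, SIR lies slightly above 0 in both, and APR1 is the only filled green symbol, at 0.73.

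Wild-type groups and lines often failed to overlap at all. In 35S:miR858 the 3 values of 6 enzymes lay below all 3 of Col-0, and those of SIR above, where 21.8% and 18.8% of all loci separated in these directions. In 35S:rMYB83 6 enzymes lay below (17.9% of all loci) and APS2 and SIR above (16.0%).

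APR1 (AT4G04610, chr4:2324878-2327064, plus strand, 3 exons) encodes a plastid APS reductase and had the largest fall. Its level was 201, 202 and 203 CPM in the Col-0 libraries, 42.1, 41.4 and 39.1 in 35S:miR858, and 74.0, 67.6 and 61.3 in 35S:rMYB83. The 3 genotypes did not overlap: every Col-0 library was highest and every 35S:miR858 library lowest. APR1 fell 4.95-fold in 35S:miR858 (log2 -2.31 ± 0.0896 SE, adjusted p = 1.59e-06) and 2.99-fold in 35S:rMYB83 (log2 -1.58 ± 0.0872, adjusted p = 1.73e-05). By p-value it ranked 3rd and 7th among the 19496 loci.

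APR3 (AT4G21990), a second plastid isoform, behaved much like APR1 with a smaller fold. It stood at 231, 210.1 and 236 CPM in Col-0, at 75.3, 83.3 and 80.2 in 35S:miR858, and at 128, 117 and 90.2 in 35S:rMYB83. Again no library of one genotype reached the range of another. It fell 2.83-fold in 35S:miR858 (log2 -1.50 ± 0.125, adjusted p = 5.86e-05) and 2.03-fold in 35S:rMYB83 (log2 -1.02 ± 0.123, adjusted p = 0.000676).

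APR2 (AT1G62180) is the isoform known to carry most of the APS reductase activity of Arabidopsis leaves. Its values were 119, 86.7 and 89.4 CPM in Col-0, 41.2, 34.2 and 31.9 in 35S:miR858, and 64.7, 55.04 and 42.5 in 35S:rMYB83. The order of the genotypes was the same, without overlap, but Col-0 replicate 1 stood above the other wild-type libraries and 35S:rMYB83 replicate 1 above the other libraries of its line. These are the libraries highest in green shoot markers. APR2 fell 2.75-fold in 35S:miR858 (log2 -1.46 ± 0.179, adjusted p = 0.000411) and 1.83-fold in 35S:rMYB83 (log2 -0.87 ± 0.176, adjusted p = 0.00888), and without both libraries the log2 changes were -1.29 and -0.84. In the reference annotation 45.0% of the 50-base windows of the APR2 transcript also lie in 2 antisense loci, AT1G08477, which the count files do not list, and AT1G62170, with 0 or 1 count per library. Whether reads were counted by strand is not stated, so antisense reads within APR2 cannot be told apart from its own.

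**Figure D2:**
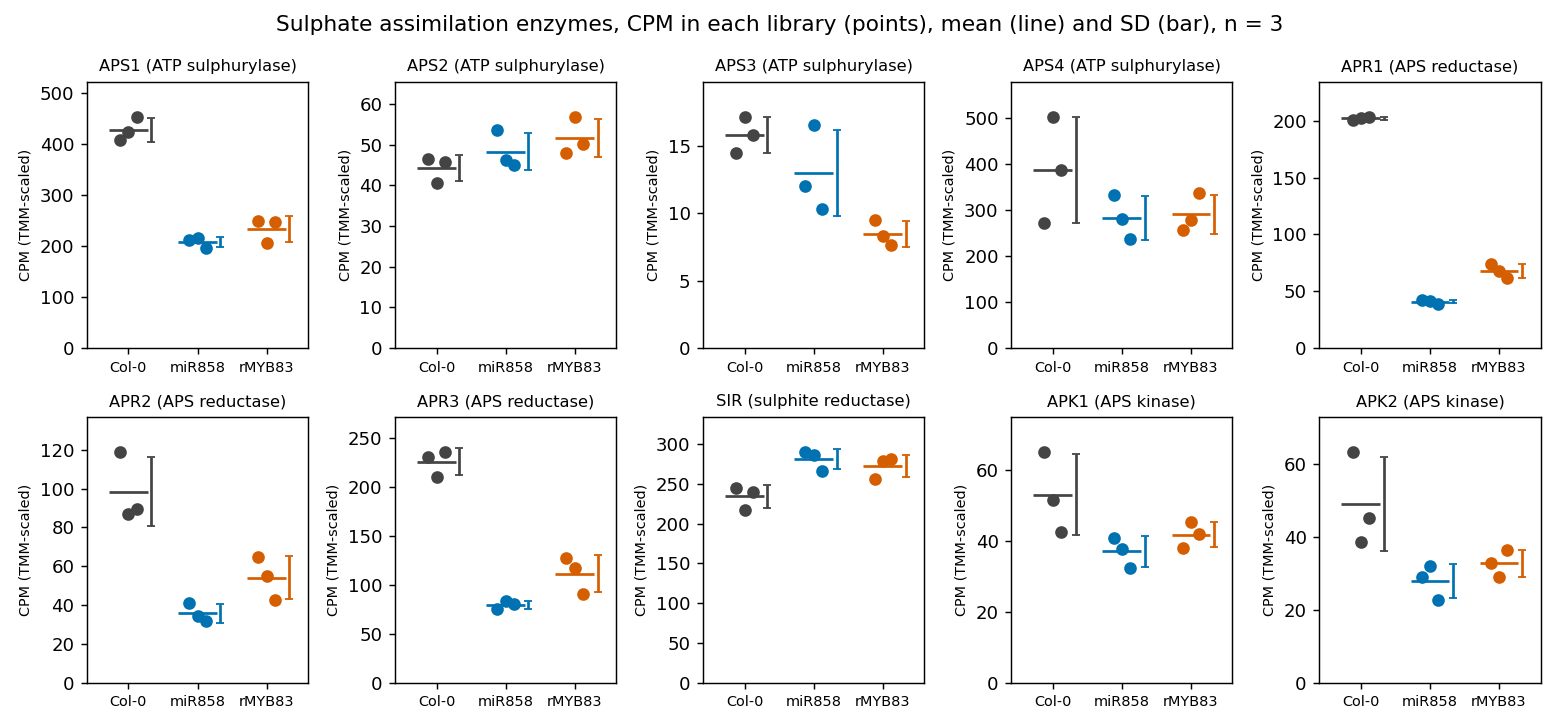
CPM on TMM-scaled library sizes (y axis, from 0, own scale in each panel) of each enzyme gene in the 3 libraries of Col-0 (grey), 35S:miR858 (blue) and 35S:rMYB83 (orange), with the mean as a line and the SD as a bar. The 3 APR panels show the genotypes fully apart, as in APR1 from 201 to 203 down to 39.1 to 42.1, whereas in APS4 the points of all genotypes overlap and in APS2 those of 35S:miR858 overlap both others.

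Among the ATP sulphurylases APS1 (AT3G22890), a plastid isoform, showed the clearest fall. The Col-0 libraries had 408, 424 and 454 CPM, those of 35S:miR858 213, 216 and 197, and those of 35S:rMYB83 250.4, 205 and 247. Both lines lay below the wild type in every library and overlapped each other. APS1 was 2.05-fold lower in 35S:miR858 (log2 -1.04 ± 0.0981, adjusted p = 0.000106) and 1.83-fold lower in 35S:rMYB83 (log2 -0.87 ± 0.0978, adjusted p = 0.000456).

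APS3 (AT4G14680), also a plastid form, was the least abundant of the 10, with 50 to 189 counts per library. It had 14.5, 17.1 and 15.8 CPM in Col-0, 12.004, 16.5 and 10.3 in 35S:miR858, and 9.46, 8.32 and 7.60 in 35S:rMYB83. All 35S:rMYB83 libraries lay below both other genotypes, while 35S:miR858 overlapped Col-0. It fell 1.88-fold in 35S:rMYB83 (log2 -0.91 ± 0.182, adjusted p = 0.00847), and in 35S:miR858 the log2 change was -0.29 ± 0.174 (adjusted p = 0.262). Its log2 difference between the lines, -0.62 ± 0.185, did not pass (adjusted p = 0.103).

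APS4 (AT5G43780), the remaining plastid form with a miR395 site, varied most within the wild type. Its values were 271, 501 and 386 CPM in Col-0, 332, 279.9 and 236 in 35S:miR858, and 256, 278 and 337 in 35S:rMYB83. The lines overlapped the lowest wild-type library, Col-0 replicate 1, and neither comparison passed (log2 -0.45 ± 0.213 and -0.41 ± 0.213). Without that library, 1 of the 2 with the most green shoot markers, APS4 passed as lower in both lines. The log2 changes were then -0.65 (adjusted p = 0.0232) and -0.61 (adjusted p = 0.0374). Such calls were rare over the 19 alternative settings, with 2 for the miR858 line and 1 for the MYB83 line. Log2 values there ran from -0.65 to -0.22 for the first (adjusted p up to 0.497). For the second they ran from -0.61 to -0.18 (adjusted p up to 0.647).

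APS2 (AT1G19920) is the isoform known to be made for the cytosol as well as plastids, and it has no close miR395 match. It had 46.4, 40.5 and 45.7 CPM in Col-0, 53.5, 46.2 and 45.1 in 35S:miR858, and 47.9, 56.8 and 50.04 in 35S:rMYB83. The 35S:rMYB83 libraries lay just above the wild type, and the 35S:miR858 libraries overlapped it. The log2 changes were 0.13 ± 0.106 and 0.23 ± 0.106, and neither passed (adjusted p = 0.418 and 0.185). The first of these is -0.02 when libraries are scaled by their totals. In the reference annotation 3.65% of the 50-base windows of the APS2 transcript also lie in AT1G19910 on the opposite strand, which had 914 to 1768 counts per library. As the strand setting is not stated, the effect of this overlap on the APS2 counts is not known.

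Precursor transcripts of miR395 were too rare to compare: the 6 MIR395 loci had 2 counts in all, in Col-0 replicate 1 (1 each at MIR395B and MIR395E), and 0 in the other 8 libraries, where a count of 0 allows up to 3 counts. Mature miR395 was not measured. SULTR2;1, the target outside the enzymes, had 95.6, 117 and 109 CPM in Col-0, 12.2, 2.30 and 6.89 in 35S:miR858, and 29.1, 18.6 and 15.3 in 35S:rMYB83. Both lines lay far below the wild type and did not overlap each other, with log2 falls of -3.90 ± 0.428 (adjusted p = 0.000222) and -2.37 ± 0.391 (adjusted p = 0.00318). The APS isoforms that pair with miR395 ranged from a fall in both lines (APS1) through a fall in 1 line (APS3) to no call (APS4).

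SIR (AT5G04590), the single sulphite reductase gene, was among the enzyme genes that did not fall. It had 245, 217 and 240.05 CPM in Col-0, 290.3, 286 and 266 in 35S:miR858, and 257, 279 and 281 in 35S:rMYB83. Every library of both lines lay above the wild type, by a margin that was small beside the falls in APS reductase. The log2 change was 0.26 ± 0.0837 in 35S:miR858, which passed narrowly (adjusted p = 0.0447), and 0.22 ± 0.0837 in 35S:rMYB83, which did not (adjusted p = 0.109). The call in 35S:miR858 was lost in 13 of 19 alternative settings, among them 8 of 9 that left out 1 library, with adjusted p from 0.00778 to 0.376 over all 19. The sign stayed positive in all of them for both lines.

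APK1 (AT2G14750) and APK2 (AT4G39940) encode plastid APS kinases that supply most of the PAPS for glucosinolate synthesis. APK2 had 63.4, 38.7 and 45.2 CPM in Col-0, 28.9, 32.0 and 22.8 in 35S:miR858, and 32.9, 29.0 and 36.4 in 35S:rMYB83. Both lines lay below the wild type, within which Col-0 replicate 1 stood highest. APK2 fell 1.76-fold in 35S:miR858 (log2 -0.82 ± 0.192, adjusted p = 0.0121), and in 35S:rMYB83 the log2 change of -0.58 ± 0.192 did not pass (adjusted p = 0.0671). Without the 2 libraries richest in green shoot markers the values were -0.58 (adjusted p = 0.0272) and -0.34 (adjusted p = 0.234).

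APK1 had 65.1, 51.5 and 42.4 CPM in Col-0, 40.8, 37.8 and 32.4 in 35S:miR858, and 38.0, 45.3 and 41.98 in 35S:rMYB83. The 35S:miR858 libraries lay just below the lowest wild-type library, and the 35S:rMYB83 libraries overlapped the wild type. The log2 change was -0.52 ± 0.156 in 35S:miR858 (adjusted p = 0.0344) and -0.34 ± 0.156 in 35S:rMYB83 (adjusted p = 0.169). The first call was lost in 6 of 19 alternatives: without Col-0 replicate 1 (log2 -0.35, adjusted p = 0.0867), Col-0 replicate 2 (0.0681), 35S:miR858 replicate 2 (0.0832) or 35S:miR858 replicate 3 (0.111), without both green-rich libraries (log2 -0.34, adjusted p = 0.0849), and in a fit of the 2 groups alone (0.0635).

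Levels per transcript length, as TPM (counts per transcript length, scaled to the same total in each library) over nuclear protein-coding loci, allow the genes to be ranked against each other. In Col-0 the order was APS1 (472 ± 19.7 TPM, SD, n = 3), APS4 (425 ± 122), APR3 (265 ± 17.7), APR1 (219 ± 2.45), SIR (148 ± 10.97), APR2 (100.99 ± 20.1), APK2 (73.9 ± 20.6), APK1 (68.8 ± 15.9), APS2 (48.5 ± 4.01) and APS3 (17.1 ± 1.21). The spreads of APS1 and APS4 overlapped, as did those of APR2 and APK2 and of APK2 and APK1, so these neighbours are not ordered. In 35S:miR858 APS4 (288 ± 46.2), APS1 (213 ± 6.37) and SIR (164 ± 4.94) led, and APR1 (41.1 ± 1.03) stood among APS2, APK1 and APK2 (38.7 to 49.1). In 35S:rMYB83 APR1 (68.9 ± 5.97) kept a place above these 3 genes (46.2 to 53.1).

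Summed over the member isoforms, the APS reductase step had the largest fold decrease, from 623, 551 and 583 TPM in Col-0 to 163, 162 and 160.3 in 35S:miR858 and 277, 249.6 and 205 in 35S:rMYB83. That is 3.62-fold and 2.40-fold lower on the means, and the 3 genotypes did not overlap. The ATP sulphurylase step went from 962 ± 123 TPM in Col-0 to 563 ± 55.7 with miR858 and 605 ± 57.5 with rMYB83 overexpressed, the sum of the APS kinases APK1 and APK2 from 143 ± 34.8 to 83.1 ± 9.50 and 97.0 ± 5.79. Sulphite reductase stood at 148 ± 10.97, 164 ± 4.94 and 161 ± 9.02. The APS kinases APK3 and APK4 are not among the 10 genes and are not in these sums. These sums are given as a description without a test, since 3 libraries against 3 cannot go below p = 0.1 in an exact permutation test.

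**Figure D3:**
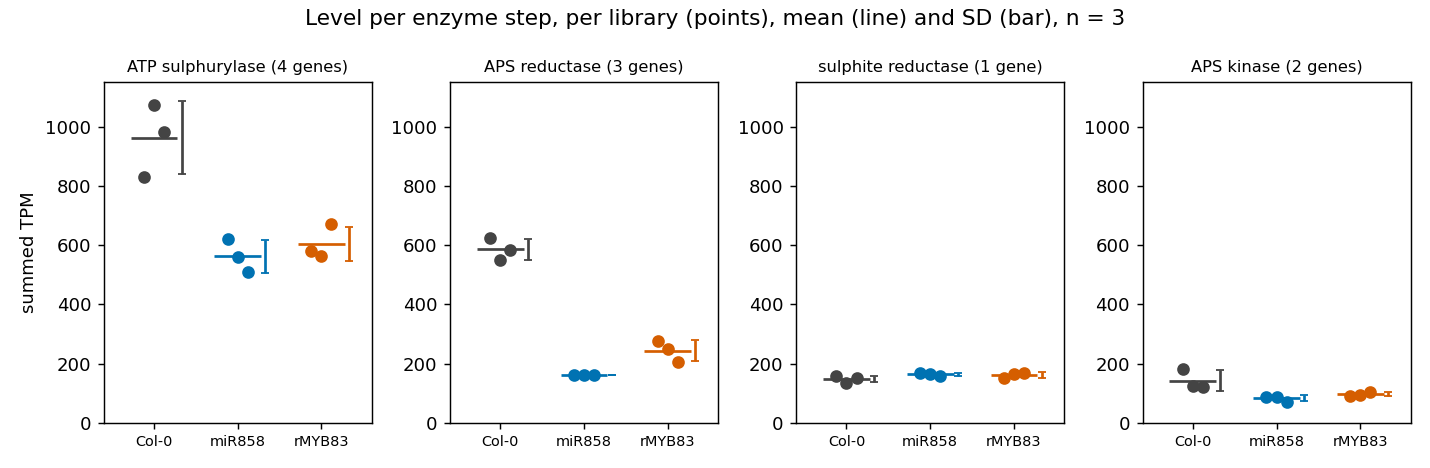
Summed TPM of the member genes of each enzyme step (APK1 and APK2 for APS kinase; y axis, from 0, same scale in all panels) in the 3 libraries of Col-0 (grey), 35S:miR858 (blue) and 35S:rMYB83 (orange), with the mean as a line and the SD as a bar. The APS reductase step drops from 586 ± 36.3 TPM to 162 ± 1.28 and 244 ± 36.3, while sulphite reductase stays between 136 and 169 in all 9 libraries.

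The balance between the steps shifted with it. The TPM ratio of APS reductase to sulphite reductase was 3.89 to 4.04 in the Col-0 libraries, 0.963 to 1.01 in 35S:miR858 and 1.22 to 1.83 in 35S:rMYB83. Against the sum of the APS kinases APK1 and APK2, which use the same substrate, the ratio was 3.41 to 4.80 in Col-0, 1.83 to 2.22 in 35S:miR858 and 1.98 to 3.01 in 35S:rMYB83. Neither line reached the wild-type range in either ratio.

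The share of some isoforms within their step differed between the genotypes. APR1 made up 37.5 ± 1.93% of the summed APS reductase TPM in Col-0, against 25.4 ± 0.464% in the miR858 line and 28.4 ± 2.02% in the MYB83 line, without overlap between the genotypes. The share of APR3 was 45.3 ± 1.49%, 53.7 ± 3.03% and 50.4 ± 1.19%. Of the ATP sulphurylase sum, APS1 held 49.6 ± 6.06% in Col-0 and 38.0 ± 2.81% and 40.2 ± 3.77% in the lines, where 1 library of 35S:rMYB83 reached the wild-type range. The share of APS2 went from 5.13 ± 1.07% to 8.72 ± 0.476% and 8.85 ± 1.31%, while its own level did not pass in either line. The shares of APS4, APK1 and APK2 overlapped between the wild type and both lines, and that of APR2 (15.5% to 19.9% in Col-0) overlapped 35S:miR858 (19.3% to 23.9%) and lay just below 35S:rMYB83 (20.2% to 22.4%). The kinases had APK1 at 44.7% to 53.5% of the APK1 and APK2 sum in Col-0, 50.4% to 55.05% in 35S:miR858 and 49.9% to 57.4% in 35S:rMYB83.

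Set directly against each other, the lines differed past the threshold in 1 enzyme gene. APR1 was 1.65-fold higher in 35S:rMYB83 than in 35S:miR858 (log2 0.73 ± 0.0879, adjusted p = 0.00277), in a comparison where 2.5% of all loci passed as higher and 1.54% as lower. APR2 (log2 0.59 ± 0.179, adjusted p = 0.107) and APR3 (log2 0.48 ± 0.124, adjusted p = 0.0619) had no overlap between the lines but did not pass, and APR3 passed in 4 of 19 alternatives and APR2 in 2. In all, 3 enzymes lay wholly higher in 35S:rMYB83 and 1, APS3, wholly lower, where 12.3% and 12.5% of all loci did so. For the other 6 the ranges overlapped, with log2 differences from -0.04 (SIR) to 0.23 (APK2).

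The falls of APS1, APR1, APR2 and APR3 in both lines, of APK2 in 35S:miR858 and of APS3 in 35S:rMYB83, and the higher APR1 level in 35S:rMYB83 than in 35S:miR858, passed in all 19 alternative settings. For APR1 the log2 change ranged from -2.45 to -2.29 in 35S:miR858 and from -1.68 to -1.52 in 35S:rMYB83 over these settings.

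Sulphate transporters, which bring in and redistribute the substrate, were mostly lower as well. This list and the pathway lists that follow were chosen with earlier results of these data known. Their counts and p-values are therefore a description and no independent support. Of 12 listed genes 11 were tested, and in each line 7 passed as lower, 2 as higher and 2 did not pass. Over all loci 13.5% were lower and 11.6% higher in 35S:miR858, and 9.73% and 6.7% in 35S:rMYB83. The median log2 change was -1.33 in 35S:miR858 and -1.38 in 35S:rMYB83. SULTR4;1, which releases sulphate from the vacuole, had 154, 163 and 189 CPM in Col-0, 44.8, 47.4 and 48.3 in 35S:miR858, and 49.97, 47.5 and 46.9 in 35S:rMYB83. Both lines were far below the wild type and alike in level, with log2 changes of -1.85 ± 0.0946 (adjusted p = 8.43e-06) and -1.81 ± 0.0949 (adjusted p = 1.73e-05). SULTR1;1, a high-affinity uptake transporter of the root surface, went from 22.0 ± 4.92 CPM to 2.22 ± 0.625 and 2.07 ± 0.504, and SULTR3;4 from 36.9 ± 10.3 to 9.11 ± 1.08 and 11.4 ± 1.18. SULTR2;2 and SULTR3;5, which takes part with SULTR2;1 in root-to-shoot transport, passed as higher in both lines. Between the lines, where 2.5% of all loci passed as higher and 1.54% as lower, none of 11 passed in edgeR (2 at an unadjusted p under 0.05, 1 with DESeq2). SULTR3;1 had the smallest p (adjusted p = 0.0735). It had 0.360, 0 and 0.108 CPM in 35S:miR858, and 7.57, 0.856 and 1.02 in 35S:rMYB83, where replicate 1, a library rich in green shoot markers, carries the mean.

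Among genes tied to the control of the pathway, the LSU and SDI genes, induced by sulphur shortage, fell furthest in 35S:miR858. In 35S:rMYB83 the same held for all of them but LSU4. LSU4 stood at 20.5 ± 9.20 CPM in Col-0 and did not pass in 35S:rMYB83 (log2 -0.51 ± 0.309, adjusted p = 0.309). Of 15 listed, 13 were tested: 8 passed as lower and MYB51 as higher in 35S:miR858, and 5 passed as lower and none as higher in 35S:rMYB83 (1 higher at an unadjusted p under 0.05, 0 with DESeq2). The shares over all loci were 13.5% lower and 11.6% higher in the first comparison and 9.73% and 6.7% in the second. The median log2 changes were -0.83 and -0.51. LSU1, of a family of small proteins induced by low sulphur, had 69.6, 79.5 and 64.5 CPM in Col-0, 0.960, 0.384 and 0.968 in 35S:miR858, and 3.97, 1.71 and 0.908 in 35S:rMYB83. Every library of both lines lay far below the lowest wild-type library. SDI1 went from 80.5 ± 22.4 CPM to 1.17 ± 0.202 and 3.11 ± 2.52, and LSU3 from 34.4 ± 3.33 to 1.02 ± 0.0559 and 2.24 ± 1.46. SLIM1, the transcription factor regarded as the central activator of the sulphate shortage response, stood at 19.7 to 22.8 CPM in Col-0 and at 18.4 to 22.4 in the lines.

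Between the lines, 4 of these 13 genes passed as higher in 35S:rMYB83 and none as lower in edgeR, where 2.5% and 1.54% of all loci did. At an unadjusted p under 0.05 there were 6 higher and 1 lower (MYB51), and DESeq2 called 5 higher and 1 lower. LSU4 stood at 1.004 ± 0.412 CPM in 35S:miR858 and 14.6 ± 3.05 in 35S:rMYB83 (log2 3.86 ± 0.431, adjusted p = 0.00184), and LSU2 at 2.64 ± 1.26 and 20.4 ± 9.86 (log2 2.91 ± 0.410, adjusted p = 0.00462). HY5, a light-response factor known to bind APR promoters, had 32.1, 31.3 and 27.2 CPM in Col-0, 17.8, 21.9 and 18.9 in 35S:miR858, and 38.6, 33.025 and 31.1 in 35S:rMYB83. Only 35S:miR858 lay apart from the wild type in HY5 (log2 -0.63 ± 0.124, adjusted p = 0.00502), and the difference between the lines passed too (log2 0.81 ± 0.125, adjusted p = 0.00710). The fourth was HYH, its close relative.

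Downstream of sulphide, genes passed in both directions. Of 15 genes of cysteine and glutathione synthesis 14 were tested. In 35S:miR858 5 passed as higher and 2 as lower, where 11.6% and 13.5% of all loci did, and in 35S:rMYB83 3 as higher and 2 as lower, against 6.7% and 9.73%. Leaving out any 1 library gave 3 to 5 higher calls in 35S:miR858 and 1 to 2 in 35S:rMYB83, with 2 lower calls in each fit. OASA1, the main cytosolic enzyme that joins sulphide to O-acetylserine, had 155, 170.3 and 191 CPM in Col-0, 279, 311 and 285 in 35S:miR858, and 256, 273 and 264 in 35S:rMYB83. Both lines lay above every wild-type library (log2 0.76 ± 0.0944, adjusted p = 0.00045, and 0.62 ± 0.0943, adjusted p = 0.00224). CYSD2, a related enzyme, and GSH1, which starts glutathione synthesis, also passed as higher in both lines, and OASB and GSH2 in 35S:miR858. The 2 that fell, SERAT3;1 and SERAT3;2, are serine acetyltransferases: SERAT3;1 went from 20.4 ± 2.23 CPM to 9.16 ± 1.21 and 8.22 ± 1.84, and SERAT3;2 from 3.09 ± 0.384 to 0.204 ± 0.156 and 0.331 ± 0.369, with 1 to 4 counts per library in the lines. None of the 14 passed between the lines (3 at an unadjusted p under 0.05, 0 with DESeq2), where 2.5% of all loci passed as higher and 1.54% as lower. CYSC1 had the smallest p (adjusted p = 0.161).

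The list of PAPS users and side branches held 11 genes, all tested. The genes called were not the sulphotransferases SOT16, SOT17, SOT18 and TPST, which consume PAPS: APK3 and APK4 passed as lower in 35S:miR858, APK4 passed as lower and SQD1 as higher in 35S:rMYB83, counts near the shares over all loci (13.5% lower in 35S:miR858, 9.73% lower and 6.7% higher in 35S:rMYB83). None of the 11 passed between the lines (3 at an unadjusted p under 0.05, 1 with DESeq2), where 2.5% of all loci passed as higher and 1.54% as lower. SQD1 had the smallest p there (adjusted p = 0.0876). Leaving out 1 library gave 0 to 3 lower calls in 35S:miR858 and 0 to 2 higher calls in 35S:rMYB83. APK4, a further plastid APS kinase, went from 22.0 ± 7.36 CPM in Col-0 to 11.3 ± 1.37 and 7.04 ± 2.94, and APK3, the cytosolic one, from 6.15 ± 0.900 to 3.52 ± 0.590 in 35S:miR858. SQD1, of sulpholipid synthesis, rose from 19.5 ± 1.73 to 34.2 ± 10.3 in 35S:rMYB83. Its values in that line were 45.8, 30.8 and 26.0 CPM, and the highest was replicate 1, a library rich in green shoot markers.

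**Figure D4:**
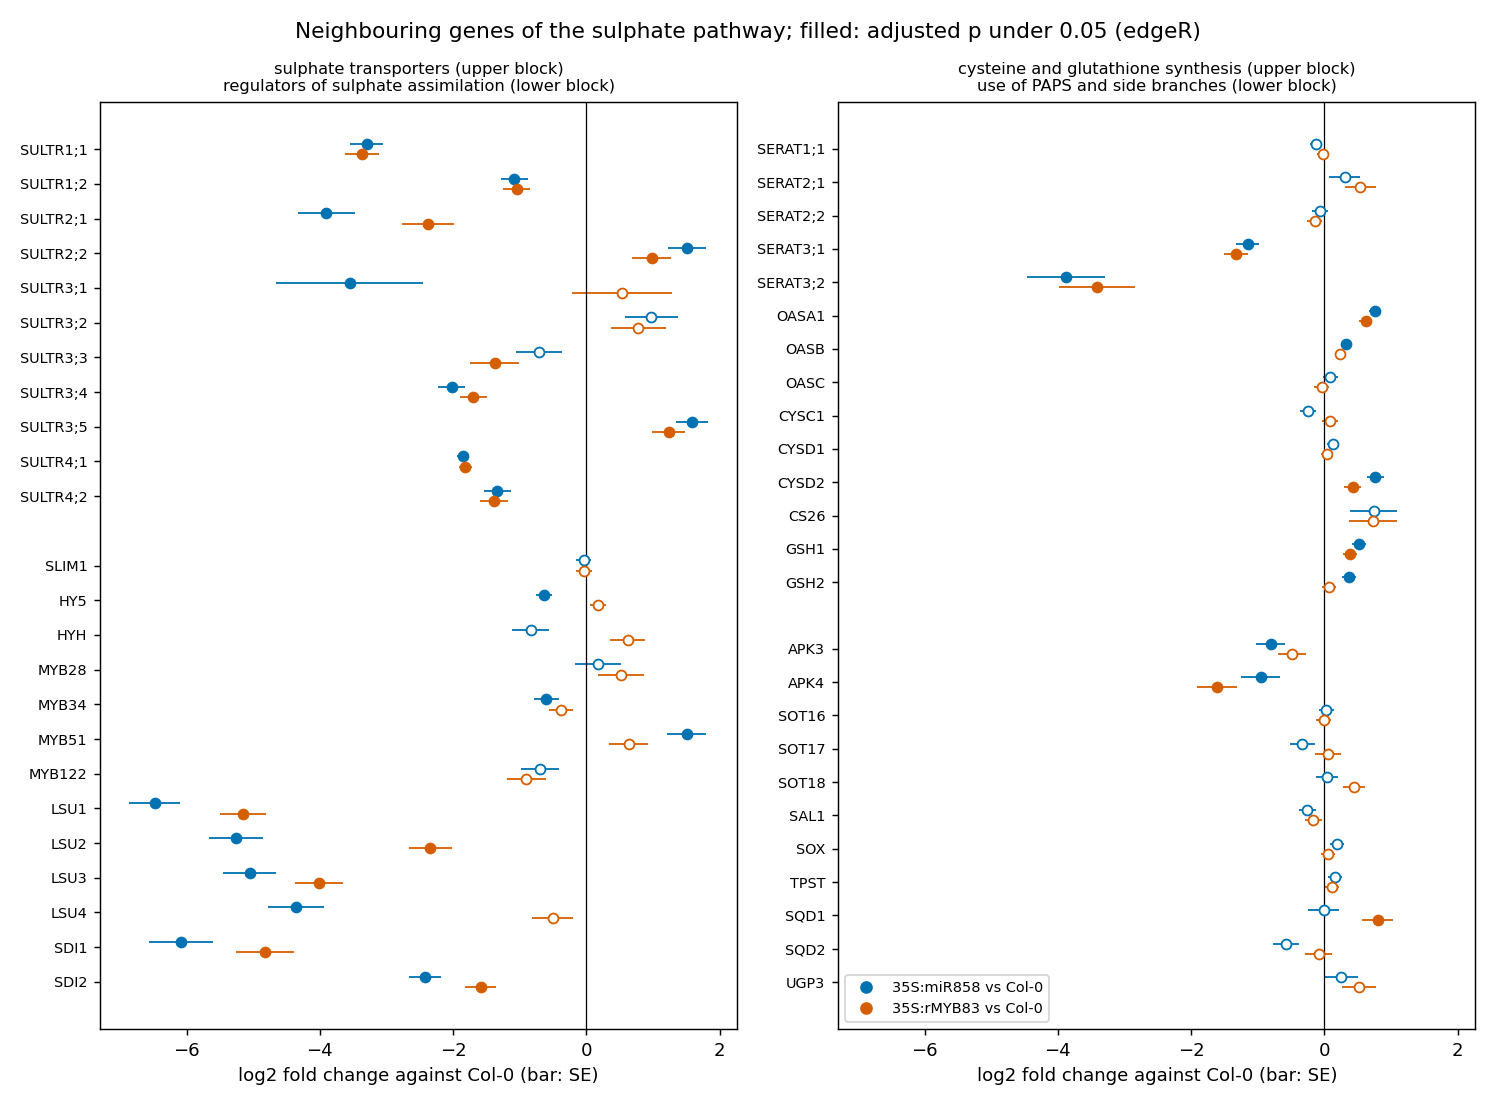
Log2 fold change against Col-0 (x axis, bar: SE) of tested genes of 4 lists around the enzymes, in 35S:miR858 (blue) and 35S:rMYB83 (orange), with filled symbols at an adjusted p under 0.05. Most transporters and the LSU and SDI genes lie left of 0, LSU1 at -6.48 in 35S:miR858 but LSU4 only at -0.51 in 35S:rMYB83. SULTR2;2, SULTR3;5 and, unfilled, SULTR3;2 lie right of 0 in both lines, and SULTR3;1, unfilled, in 35S:rMYB83. Genes of cysteine and glutathione synthesis other than SERAT3;1 and SERAT3;2 lie near or slightly right of 0.

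Genes from outside the pathway also differed between the genotypes. Of 11 circadian clock genes, 5 passed as lower and 3 as higher in 35S:miR858 and 4 as lower and 3 as higher in 35S:rMYB83, against 13.5% and 11.6% of all loci in the first and 9.73% and 6.7% in the second. The morning gene LHY changed by log2 -2.46 ± 0.388 and -1.94 ± 0.380, GI by -1.44 ± 0.180 and -0.65 ± 0.177, and the evening gene ELF4 by 1.3 ± 0.230 and 1.81 ± 0.233. The part of the clock genes in the enzyme values was not tested. Of the 7 root markers tested 2 passed as higher in each line (11.6% and 6.7% of all loci, and 1 in 35S:rMYB83 with the replicate number as a block) and none as lower. Of the 20 green shoot markers none passed in any of the 3 comparisons, by DESeq2 or at an unadjusted p under 0.05. Their median log2 changes were -0.48 in 35S:miR858, 0.80 in 35S:rMYB83 and 1.21 between the lines, where 2.5% of all loci passed as higher and 1.54% as lower. Errors were wide, as in RBCS1A (log2 -0.68 ± 0.958 in 35S:miR858), so a failure to pass does not show the groups to be alike in green tissue. Scaling libraries by their totals, in place of TMM, shifted the median of all loci by -0.14 in 35S:miR858 and -0.10 in 35S:rMYB83. It turned 2271 higher and 2629 lower calls in 35S:miR858 into 1359 and 4140.

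The gene whose profile lay nearest to each enzyme was found over the 9 libraries among 19319 genes with a mean of at least 1 CPM, by the root mean square distance of centred log2 CPM. APS1 was nearest to NF-YA4, a subunit gene of a CCAAT-binding factor (distance 0.0743), APR1 to CAD6 (0.167), APR2 to AT2G16990 (0.167), APR3 to AT1G10110 (0.124) and APS3 to PFA-DSP3 (0.131). For SIR it was EIF3A, a translation initiation factor subunit (0.0490), for APK1 ARL2 (0.105) and for APK2 AT5G24620 (0.129). Among the enzymes themselves, APR3 ranked 3rd in likeness to APR2 and APR2 ranked 9th in likeness to APR3, at a distance of 0.176. SIR and APS2 lay nearer to each other (0.0923), though APS2 ranked only 283rd for SIR. The profile of SIR was nearly flat, with a root mean square of 0.132 about its own mean, against 0.630 for APR2 and 0.640 for APR3. A small distance to SIR therefore does not show a shared pattern. APK1 ranked 60th for APK2, and APR3 95th for APR1. The distances include the size of the change, so a gene with a like pattern but another fold counts as distant.

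In the 250 bases before the annotated start, GAGAC, the core of a sulphur-response element, was found on either strand in 0 of 10 enzyme genes, against 25.2% of 19302 promoters, and the G-box CACGTG, which HY5 can bind, in 0 of 10 against 7.18%. In 500 bases GAGAC was found in 2 of 10 against 45.5%. The secondary wall MYB element, which MYB83 is known to bind (ACCNANN, where the N positions are A or T, then A or C, then C or T), was found in 2 of 10 against 29.6% in 250 bases, and in 5 of 10 against 49.7% in 500. An absence says only that these letters are not in these windows.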

How the data were processed

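Roots of 3 genotypes were sequenced in 3 libraries each. Per the submitters' processing notes, FastQC, Trimmomatic, TopHat2 2.0.14, HTSeq and the TAIR10 build were used; their settings are not stated. The deposited files hold raw counts per locus, whole numbers as the authors' counting gave them. Summary lines were left out of library sizes: reads in no feature came to 3.84% to 6.47% of gene counts, and ambiguous reads to 1.83% to 2.22%. Non-unique alignments came to 136% to 199% of gene counts and were not assigned to genes, so near-identical paralogs are undercounted. Among the 10 enzyme transcripts only those of APS1 and APS3 shared an exact 50-base window with a paralog, 1 window each.

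Computed here, in R 4.3.3 with edgeR 4.0.16: filterByExpr by genotype, TMM scaling (factors 0.93 to 1.117), 1 quasi-likelihood fit of all 9 libraries, and Benjamini-Hochberg adjustment over 19496 loci at 0.05. The SE is the log2 fold change over the square root of F. Log2 CPM used a prior count of 2, and TPM used the longest transcript in TAIR10.1, to which 28009 of 28775 loci matched. Tested on counts simulated at these depths, with 19496 loci, the fit recovered 69%, 66% and 63% of genes changed 2-fold and 90% changed 4-fold in each comparison (35S:miR858 and 35S:rMYB83 against Col-0, and the lines against each other), with 12, 5 and 11 false calls. Fewer genes were changed there than passed in these data, all of them with a mean of at least 1 CPM. Each count was drawn independently, without effects shared by the genes of a library, so these rates need not hold for the real libraries. Between replicates, chi-square over its degrees of freedom came to 6.75 to 24.8, so no library repeats another. The SD and SE include the spread between libraries, whereas the upper limit given for miR395 loci without counts covers counting error only.

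The members and lists were chosen with earlier results of these data known. Named by rule were the enzymes, the transgenes, the miR395 loci and SULTR2;1, up to 3 members per list and comparison with the smallest adjusted p (or the 1 with the smallest p), and the gene most like each enzyme that passed. Other list genes and clock genes were named after their values were seen. Listed locus AT5G52560 encodes another enzyme than assumed and was left out. Alternatives were 19: other scalings (RLE, totals), other filters, DESeq2 1.42.0, the 2 groups alone, a replicate block, a green marker covariate, and left-out libraries.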

Additional observations from a re-analysis of the deposited data

How the results depend on the processing

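The enzyme calls that held in every alternative are given above. The 1 higher call in 35S:miR858 against Col-0 (SIR) became 0 with library totals, with totals without rRNA loci, with no filter, with the 2 groups alone and with the replicate block, and 0 to 1 when a library was left out. The 1 higher call between the lines became 2 with library totals, totals without rRNA loci or the replicate block, 3 with DESeq2, and 1 to 2 when a library was left out. The 0 higher calls in 35S:rMYB83 against Col-0 became 1 with DESeq2 (SIR, adjusted p = 0.0491). Lower calls stayed within 5 to 6 of 10 in both lines, leave-one-out included. Signs turned only in values that passed nowhere: APS2 in 35S:miR858 with library totals (log2 -0.017), and between the lines APS4 without 35S:miR858 replicate 3 (-0.068) or 35S:rMYB83 replicate 3 (-0.085), its leave-one-out values running from -0.085 to 0.17, and SIR without both green-rich libraries (0.0029).

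Over all loci, library totals gave 1359 higher and 4140 lower in 35S:miR858 and 843 higher in 35S:rMYB83, and between the lines DESeq2 gave 565 lower and leaving out both green-rich libraries 179 lower. Leave-one-out ranges were 1493 to 2277 higher and 1975 to 2869 lower in 35S:miR858, 783 to 1537 and 1223 to 2254 in 35S:rMYB83, and 238 to 594 and 84 to 398 between the lines. Counts over the 4 lists stayed within 1.5 times in 409 of 456 cases. The cause was not tested.

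Deviations of same-numbered libraries correlated at -0.257 to 0.548 over 9 pairs, and of others at -0.538 to 0.464 over 18, so numbers were not taken to pair the libraries over all 3 groups. The 3 same-numbered pairs of Col-0 and 35S:rMYB83 were all above 0.1 (0.548, 0.241 and 0.141), and the block changed no enzyme call in that comparison. With the replicate block, APR2 also passed between the lines (adjusted p = 0.0173) and SIR in 35S:miR858 did not (0.0719). Longest-transcript and summed-exon lengths gave step sums within 1 SD in 11 of 12 cases (APS reductase in 35S:miR858 was 163 for 162 TPM). With a prior count of 0.5 the nearest gene changed for APR1 (AT4G38060) and APR3 (HAE).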
